A study of Homo sapiens with 22 samples.

Results

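This account follows 7 genes of prostaglandin synthesis, breakdown and reception through RNA-seq of RPTEC cells, human renal proximal tubule epithelial cells immortalized with hTERT. The genes were chosen by name, as all 7 rows of the table for PTGS1, PTGS2, PTGES, PLA2G4A, HPGD, PTGER2 and PTGER4, out of 36859 genes in all. The 22 libraries form 11 groups of 2. The medium held 2% serum for untreated WT cells, for WT cells exposed during 72 h to TGF-β (10 ng·mL-1), for KO1 and KO2, in which SETD2 was knocked out, and for cells labelled KO2 rescue. It held 10% serum for Rescue1 and Rescue2, which are clones given SETD2 back, and for WT lines that express eGFP, OCT2, PRRX1 or SOX2 from a lentivirus. KO1 and KO2 were each grown from 1 cell after CRISPR cutting in an early exon of SETD2, the methyltransferase that trimethylates H3K36, and carried frameshifts on both alleles. The rescue clones were single colonies of KO cells that received full-length SETD2 by lentivirus, and the transduced WT lines were selected in bulk. Genotype, clone, serum and selection therefore vary together in several comparisons. Nothing in the labels says that the 2 libraries of a group came from separate cultures, so the p-values below measure the spread between libraries, which may be technical.

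Prostaglandins are short-lived lipids made from arachidonic acid. Cytosolic phospholipase A2 (PLA2G4A) frees the acid from membranes, a cyclooxygenase (PTGS1, present in many resting cells, or PTGS2, the inducible form) turns it into prostaglandin H2, and a terminal synthase such as the microsomal enzyme PTGES turns that into prostaglandin E2. HPGD, the 15-hydroxyprostaglandin dehydrogenase, starts its breakdown, and the receptors PTGER2 (EP2) and PTGER4 (EP4) couple the signal to cAMP. In the kidney these lipids act on blood flow and on salt and water handling.

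Values are normalized counts, that is read counts per gene divided by a size factor for the library, recovered from the deposited log2 values. A single read was worth 0.8 to 1.605 normalized counts, from which 7500000 to 18600000 assigned reads per library were estimated, and 3 reads (2.4 to 4.815 normalized counts) were taken as the limit of what a count of 0 allows, for counting error only. The value of a read was itself estimated: 49.1% to 65.0% of the low values of a library lay near a whole multiple of it. Read numbers, bounds and counting intervals below are therefore approximate. SETD2 itself, the check of the labels, averaged 1956 ± 148 (SD, n = 2) in WT, 1088 ± 59.4 in KO1, 1051 ± 1.35 in KO2, 10305 ± 90.9 in Rescue1 and 10105 ± 481 in Rescue2. The libraries labelled KO2 rescue averaged 827 ± 10.5, below KO2 (log2 change -0.35, adjusted p = 0.00382), so that SETD2 mRNA goes against their label and no direction drawn from them below rests on restored SETD2. Of 12 proximal tubule markers 7 passed the filter, and SLC22A6 and HNF4A were at 0 in every library. The summed level of 6 fibroblast markers (DCN, LUM, COL1A1 and others) was 829 in the one WT library and 12429 in the other. It was 223367 to 236448 in KO1, 98936 to 102550 in KO2, 46370 to 47786 after TGF-β, 38479 to 40987 in the libraries labelled KO2 rescue and 818 to 3854 in the 12 libraries grown in 10% serum. In the KO clones the sum was mostly DCN, with means of 228207 in KO1, 96676 in KO2 and 383 in WT. DCN, LUM and PDGFRA were called higher in both KO clones and 0 of the 6 lower. The COL1A1 mean was 928 in KO1 and 3636 in KO2, both between the WT libraries (532 and 11919). COL1A1 was not called against WT in either KO clone. After TGF-β the sum was mostly COL1A1 (mean 45802). The part of these markers in the results below was not tested, and in bulk RNA fewer cells of a type and less RNA per cell cannot be told apart. Leukocyte markers summed to 21.1 to 398 over the 22 libraries, endothelial markers to 2.66 to 157, collecting duct markers to 54.3 to 364 and markers of the macula densa and loop to 27.7 to 1179.

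The promoters of PTGS2, PTGES and PTGER2 are shown because these genes were each highest in KO1, and that of HPGD because it was lowest there. Each runs 5′ to 3′ on the gene's own strand from 250 bases before to 50 bases after the RefSeq start (GRCh38.p14): chr1:186680374-186680673, minus strand, for PTGS2; chr9:129752993-129753292, minus strand, for PTGES; chr14:52314062-52314361, plus strand, for PTGER2; and chr4:174522439-174522738, minus strand, for HPGD, the window at the start of its canonical transcript. Capitals mark the TATA box TATAAA, the GC box GGGCGG, the NF-κB pattern (GGG and CC around 5 bases of any kind) and TGACG, the core of the cAMP response element, on either strand; a run of capitals can hold overlapping matches.
PTGS2: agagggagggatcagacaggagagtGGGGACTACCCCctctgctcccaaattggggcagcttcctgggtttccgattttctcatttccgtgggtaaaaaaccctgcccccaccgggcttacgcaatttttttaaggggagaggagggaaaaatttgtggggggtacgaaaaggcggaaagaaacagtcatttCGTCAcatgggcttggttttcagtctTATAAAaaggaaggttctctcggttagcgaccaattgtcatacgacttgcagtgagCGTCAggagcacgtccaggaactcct
PTGES: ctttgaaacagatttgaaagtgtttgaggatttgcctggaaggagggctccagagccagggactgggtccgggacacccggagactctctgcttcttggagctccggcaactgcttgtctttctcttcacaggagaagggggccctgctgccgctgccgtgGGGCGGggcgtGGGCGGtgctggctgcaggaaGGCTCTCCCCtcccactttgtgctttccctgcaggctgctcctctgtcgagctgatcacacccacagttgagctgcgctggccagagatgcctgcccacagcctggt
PTGER2: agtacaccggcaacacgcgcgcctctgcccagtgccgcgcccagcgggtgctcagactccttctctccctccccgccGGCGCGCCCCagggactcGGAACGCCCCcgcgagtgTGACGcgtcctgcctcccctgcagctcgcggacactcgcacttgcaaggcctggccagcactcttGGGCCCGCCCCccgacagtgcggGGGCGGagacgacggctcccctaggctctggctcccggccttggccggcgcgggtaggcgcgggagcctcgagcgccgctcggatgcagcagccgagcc
HPGD: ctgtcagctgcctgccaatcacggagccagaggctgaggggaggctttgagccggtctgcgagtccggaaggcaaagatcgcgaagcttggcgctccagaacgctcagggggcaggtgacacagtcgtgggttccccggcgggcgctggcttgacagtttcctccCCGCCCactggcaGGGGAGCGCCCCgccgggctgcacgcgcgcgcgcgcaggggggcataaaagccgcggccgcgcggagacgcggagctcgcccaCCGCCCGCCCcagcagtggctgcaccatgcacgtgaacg
Of the 35116 promoters in the table, 11.5% held the TATA box, 45.0% the GC box, 58.7% the NF-κB pattern and 24.6% the cAMP core. The PTGS2 promoter held 1 TATA box on its own strand, 4 matches to the NF-κB pattern in 1 run (both strands counted), 2 cAMP cores and no GC box. Neither PTGES nor PTGER2 held the TATA letters, and each had 2 GC boxes, with 1 NF-κB match in PTGES and 5 in PTGER2. PTGER2 also held 1 cAMP core, and the PTGES and HPGD windows shown held none. HPGD had 3 GC boxes and 4 NF-κB matches. These are matches of letters within 300 bases and not binding sites.

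PTGS1 (ENSG00000095303, chr9:122370530-122395703) was the cyclooxygenase detected in every library. Its normalized counts in untreated WT cells were 146 and 131, falling to 23.2 and 55.0 under TGF-β. KO1 had 386 and 361, and KO2 had 685 and 577. They were 362 and 301 in the libraries labelled KO2 rescue, 218 and 166 in Rescue1 and 155 and 161 in Rescue2. All 4 libraries of the KO clones thus lay above WT, both TGF-β libraries below it, and the rescue clones between. The KO1 mean was 2.70 times that of WT (log2 change 1.43 ± 0.27 SE, adjusted p = 0.000698) and the KO2 mean 4.55 times (2.18 ± 0.27, adjusted p = 2.25e-05), by limma over all tested genes with Benjamini-Hochberg adjustment. KO1 against KO2 was not called (-0.75 ± 0.27, adjusted p = 0.0798). With TGF-β it fell 3.54-fold (-1.92 ± 0.27, adjusted p = 0.00017), a call lost when only the 4 libraries compared entered the fit (adjusted p = 0.184). In the rescue clones it was 2.87-fold below the KO clones (-1.48 ± 0.19, adjusted p = 1.73e-05). The libraries labelled KO2 rescue were 1.9-fold below KO2 (-0.93 ± 0.27, adjusted p = 0.0445), which misses the required change of 1 on the log2 scale. The highest group means after KO2 were those of WT cells transduced with OCT2 (578 ± 25.1), eGFP (528 ± 29.5), SOX2 (471 ± 9.35) and PRRX1 (388 ± 0.149). The libraries of KO2 and OCT2 overlapped, as did those of KO1 and the libraries labelled KO2 rescue, and every other neighbour in the order was apart.

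PTGS2 (ENSG00000073756, chr1:186671791-186680922), the inducible cyclooxygenase, was nearly silent outside the KO clones. It stood at 79.6 and 299 in KO1 and at 53.2 and 2.76 in KO2, against 1.80 and 0.6 in WT, which is 3 reads over both WT libraries. With TGF-β it was 3.93 and 1.32. Over the 18 libraries outside KO1 and KO2 it did not exceed 12.5, and 7 of the 22 libraries had none. So both KO1 libraries and 1 of the 2 KO2 libraries lay above all others, and the second KO2 library lay among the rest. The KO1 mean of 189 ± 155 (SD, n = 2) was 158 times the WT mean, with a 95% counting interval of 53.6 to 768, and the test called it higher (log2 change 6.20 ± 1.05, adjusted p = 0.000241). KO2 averaged 28.0 ± 35.7 and was not called (2.75 ± 1.05, adjusted p = 0.0647); without KO2 replicate 2 the change was 4.68 and was called (adjusted p = 0.00295). KO1 exceeded KO2 (3.45 ± 1.05, adjusted p = 0.0381), a difference that was 2.5 without KO1 replicate 2 (adjusted p = 0.242) and 1.52 without KO2 replicate 2 (adjusted p = 0.404), neither called. PTGS2 was 0 in both libraries labelled KO2 rescue, at least 8.76-fold lower than in KO2 (adjusted p = 0.031), but the call was lost without KO2 replicate 1 (adjusted p = 0.345) or without either library labelled KO2 rescue (0.128 and 0.134). Rescue1 had 2.66 and 0, and Rescue2 9.73 and 7; together they lay below the KO clones (-3.48 ± 0.74, adjusted p = 0.00138). Against KO2 alone that difference was -1.76 (adjusted p = 0.158). The antisense transcript PACERR overlaps the start of PTGS2, and whether the counting used the strand is not given in the sources used here.

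**Figure D1:**
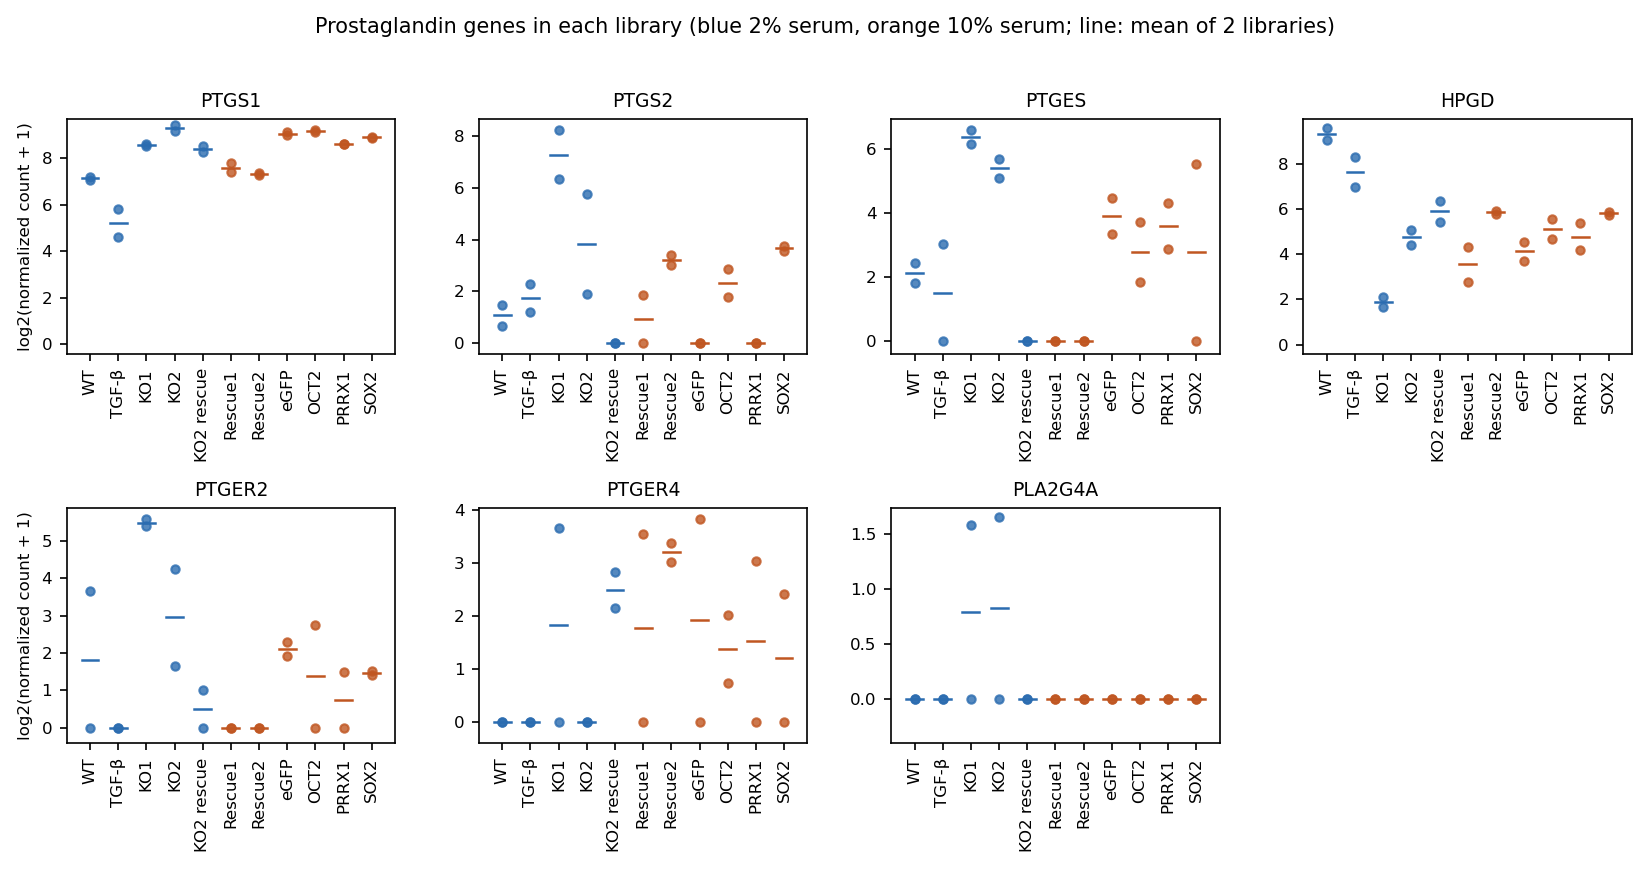
Log2(normalized count + 1) of each of the 7 prostaglandin genes (y axis, a scale per panel) in each of the 11 groups (x axis); points are libraries, lines are means of 2, blue is 2% serum and orange 10% serum. PTGS2, PTGES and PTGER2 are highest in KO1, HPGD is highest in WT, and PTGES is at 0 in all 4 libraries of Rescue1 and Rescue2 and in the 2 labelled KO2 rescue.

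PTGES (ENSG00000148344, chr9:129738331-129753042), the inducible prostaglandin E synthase, was detected in all 4 libraries of the KO clones and in none of Rescue1, Rescue2 or the pair labelled KO2 rescue. Its normalized counts were 96.4 and 71.0 in KO1 and 33.1 and 51.1 in KO2, against 4.43 and 2.52 in WT and 0 and 7.14 with TGF-β. It was 0 in the 4 libraries of the rescue clones and in both libraries labelled KO2 rescue. The 4 KO libraries did not overlap with those of WT, TGF-β, Rescue1 or Rescue2, nor with those labelled KO2 rescue. Among transduced WT cells it was 21.2 and 9.15 with eGFP, and 45.8 and 0 with SOX2, the widest disagreement between paired libraries for this gene. The higher SOX2 library thus lay above KO2 replicate 1 (33.1), so KO2 and SOX2 cells overlapped. OCT2 cells had 12.1 and 2.58, and PRRX1 cells 19.1 and 6.38. The KO1 mean was 24.1 times that of WT (log2 change 4.26 ± 1.37, adjusted p = 0.0227). The KO2 mean was 12.1 times (3.27 ± 1.37, adjusted p = 0.0923, not called, but 0.0313 with a pseudocount of 5). The KO1 call was lost with any 1 of its 4 libraries left out (adjusted p from 0.0583 to 0.1). Rescue1 and Rescue2 were at least 18.6-fold below the KO clones (adjusted p = 0.000153), a call kept in each of the 8 fits without 1 library. They were at least 4.49-fold below eGFP cells, which grew in the same 10% serum (adjusted p = 0.0219); without eGFP replicate 1 or replicate 2 the adjusted p was 0.177 or 0.0577. The libraries labelled KO2 rescue were at least 13.2-fold below KO2 (adjusted p = 0.0203), lost with any 1 of the 4 libraries left out (adjusted p from 0.0772 to 0.115).

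HPGD (ENSG00000164120, chr4:174490175-174523154), the enzyme that inactivates prostaglandins, fell in both KO clones, in which PTGS1 rose. Its normalized counts in untreated WT cells were 756 and 532, and under TGF-β 125 and 311. KO1 had 3.27 and 2.19, and KO2 had 32.9 and 20.1. Both WT libraries were above all others, both TGF-β libraries came next, and both KO1 libraries were the lowest, at about 5 reads in all, although none of the 22 was at 0. Relative to WT, HPGD was 236-fold lower in KO1, with a 95% counting interval of 101 to 728 because the KO1 mean of 2.73 lies under 3 reads per library (log2 change -7.43 ± 0.63, adjusted p = 2.15e-07) and 24.3-fold below in KO2 (-4.57 ± 0.63, adjusted p = 5.03e-05). Those calls held under every alternative tried. The clones differed 9.72-fold, with a counting interval of 3.88 to 31.3 (-2.86 ± 0.63, adjusted p = 0.00608), which was not called without KO2 replicate 1 (adjusted p = 0.0549), with p from the deposited log2 values (0.206) or with only the libraries compared (0.123). With TGF-β the mean was 2.95-fold lower and not called (-1.68 ± 0.63, adjusted p = 0.084), although p from the deposited log2 values (adjusted p = 0.000482) and a pseudocount of 5 (adjusted p = 0.0442) called it. HPGD was 5.90 and 19.0 in Rescue1, 59.3 and 54.2 in Rescue2, and 80.2 and 42.0 in the libraries labelled KO2 rescue, all far below WT. Rescue1 and Rescue2 together were above the KO clones (1.39 ± 0.44, adjusted p = 0.0187), but against KO2 alone the change was -0.04 (adjusted p = 0.97), and with Rescue1 alone it was 0.24. The call was also lost without KO1 replicate 2 (adjusted p = 0.0509), KO2 replicate 2 (0.0685) or Rescue1 replicate 2 (0.0921). The 8 libraries of transduced WT cells held 12 to 57.6, and eGFP cells were 37.5-fold below untreated WT cells (-5.19 ± 0.63, adjusted p = 2.3e-05). Neighbouring groups in the order overlapped from the libraries labelled KO2 rescue down to Rescue1, apart from SOX2 and OCT2 cells.

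**Figure D2:**
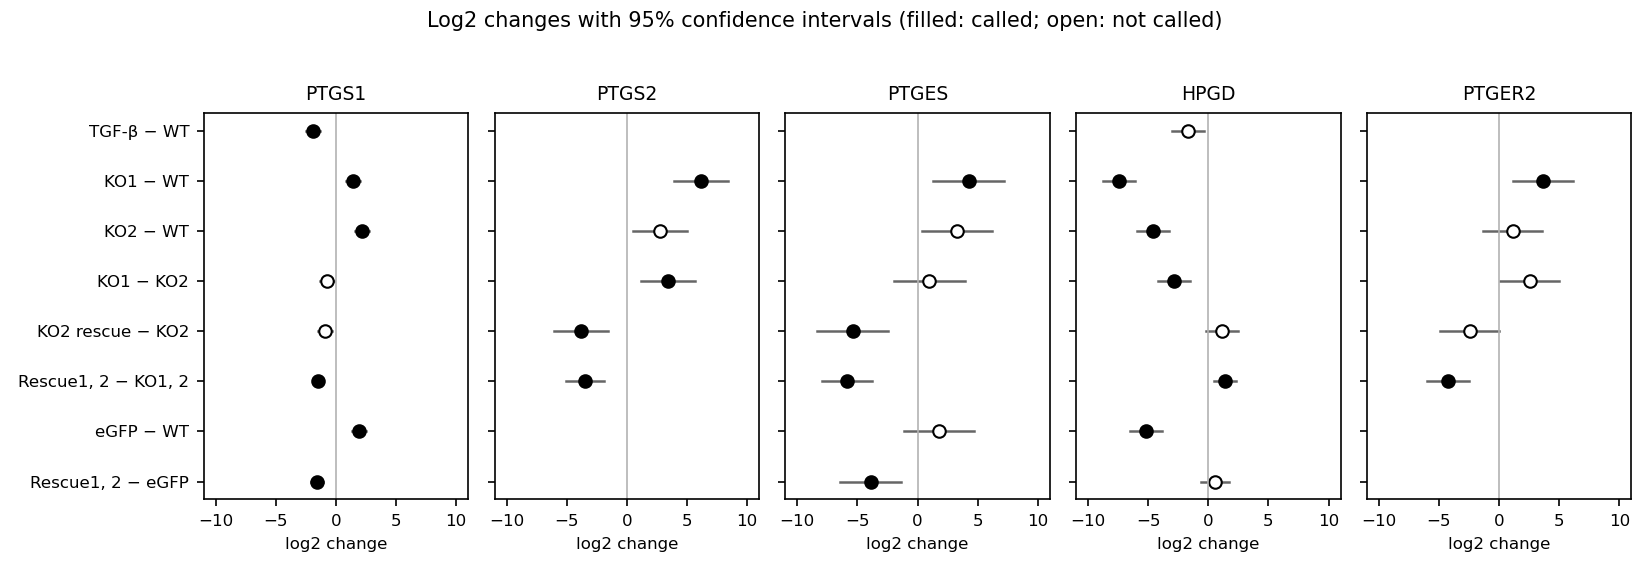
Log2 change (x axis) with its 95% confidence interval for PTGS1, PTGS2, PTGES, HPGD and PTGER2 in 8 comparisons (y axis), given where at least 1 group averaged 10 normalized counts; filled points passed the test and open points did not. HPGD is at -7.43 in KO1 and -4.57 in KO2 while PTGS1 is at 1.43 and 2.18. Changes against groups at 0 depend on the added 1 count.

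PTGER2 (ENSG00000125384, chr14:52314305-52328598), the EP2 receptor, was highest in KO1 at 47.3 and 40.9 normalized counts. WT had 11.6 and 0, KO2 2.16 and 18.0, and both TGF-β libraries 0. Both KO1 libraries lay above all others, while WT and KO2 each had a library at or under the limit of a count of 0. The KO1 mean was 7.61 times that of WT (log2 change 3.66 ± 1.16, adjusted p = 0.0202), and without WT replicate 2 the change was 1.84 and not called (adjusted p = 0.266). The call was also lost without KO1 replicate 1 (adjusted p = 0.0671) or replicate 2 (0.0635). With only the libraries compared in the fit the KO1 call was lost as well (adjusted p = 0.191). PTGER2 was 0 in all 4 libraries of Rescue1 and Rescue2, at least 8.02-fold below the KO clones (adjusted p = 0.000618). The bound was 13.1-fold against KO1 alone and 2.99-fold against KO2 alone. KO1 was not called against KO2 (2.54 ± 1.16, adjusted p = 0.159), although a pseudocount of 5 (adjusted p = 0.03) and p from the deposited log2 values (0.0296) called it. The libraries labelled KO2 rescue, at 1.02 and 0, were not called against KO2 (-2.45 ± 1.16, adjusted p = 0.235). In eGFP cells PTGER2 was 3.89 and 2.79. PTGER4 (ENSG00000171522, chr5:40679915-40693735), the EP4 receptor, was 0 in 11 of 22 libraries and reached 13.2 at most, in an eGFP library, and no group averaged 10. It was 0 in both libraries of WT, TGF-β and KO2. PLA2G4A (ENSG00000116711, chr1:186828949-186988981), the phospholipase upstream of both cyclooxygenases, did not pass the filter. It was 0 in 20 libraries, and 2.00 and 2.14 in 1 library each of KO1 and KO2, about 2 reads each, which is under the limit of a count of 0. PLA2G4A lies 148026 bases from PTGS2 on the other strand, and PTGS2 was well above that limit in the same 2 libraries. In KO1 replicate 2, where PTGS2 was highest (299), PLA2G4A was 0. A link between these 2 genes was not tested.

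The ratio of cyclooxygenase to HPGD mRNA was under 1 in the 4 libraries of untreated and TGF-β-treated WT cells and over 1 in the other 18. Per kb of transcript, PTGS1 and PTGS2 together averaged 116 ± 30.8 normalized counts in KO1 and 132 ± 23.1 in KO2, where untreated WT cells had 27.9 ± 2.20 and TGF-β-treated cells 8.37 ± 4.07 (SD, n = 2). The rescue clones lay nearer to WT, at 38.6 ± 7.72 in Rescue1 and 33.3 ± 0.359 in Rescue2. HPGD on the same scale averaged 1.04 ± 0.290 in KO1 and 10.1 ± 3.46 in KO2, where untreated WT cells had 246 ± 60.4 and TGF-β-treated cells 83.2 ± 50.2, and it was 4.74 ± 3.53 in Rescue1 and 21.7 ± 1.38 in Rescue2. The ratio of cyclooxygenase to HPGD was 0.102 and 0.129 in the untreated WT libraries and 0.0948 and 0.115 after TGF-β. KO1 reached 75.9 and 165, and KO2 11.8 and 15.1. The KO1 ratios divide by about 3 and 2 reads of HPGD, so their size is uncertain. The ratio was 2.35 and 3.74 in the libraries labelled KO2 rescue, 1.46 to 19.6 in Rescue1 and Rescue2, and 4.31 to 23.9 in the 8 transduced WT libraries. With TGF-β the means of PTGS1 and HPGD were both lower, of which PTGS1 passed the test and HPGD did not, and the ratio lay within the range of the WT libraries or just under it. PTGS2 made up 18.6% and 48.0% of cyclooxygenase mRNA per kb in KO1 and 7.96% and 0.53% in KO2. In the other 18 libraries it made up 0 to 15.9%, with the highest value in the TGF-β library in which PTGS1 was at its lowest, where it rests on few reads. These are mRNA levels per length and not enzyme amounts.

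**Figure D3:**
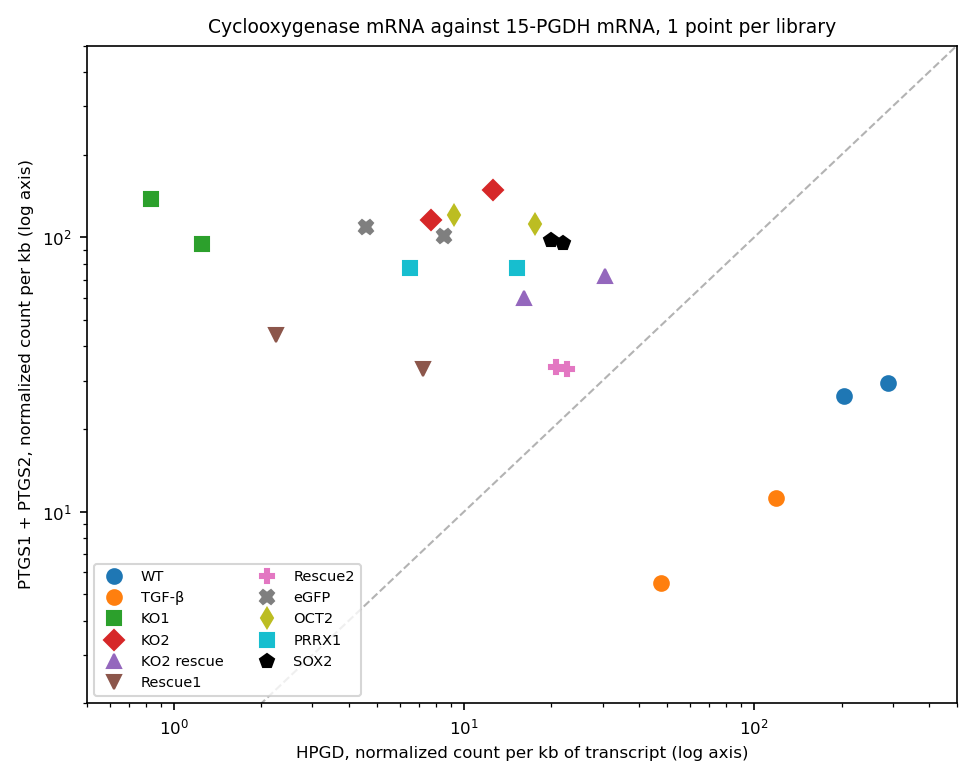
PTGS1 plus PTGS2 (y axis) against HPGD (x axis), both as normalized counts per kb of transcript on log axes, with 1 point per library and a dashed line where they are equal. The 4 libraries of WT and TGF-β lie under the line at ratios of 0.0948 to 0.129, and the other 18 lie above it, KO1 farthest at 75.9 and 165. The KO1 ratios rest on about 3 and 2 reads of HPGD.

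Set against all genes, most of the 6 tested prostaglandin genes changed in KO1 and fewer in KO2. The genes were chosen with earlier results of these data known, and their counts were not tested against the shares of all genes. In KO1 4 were called higher (PTGS1, PTGS2, PTGES and PTGER2) and 1 lower (HPGD), where 25% of all 14585 tested genes were called. In KO2 PTGS1 was higher and HPGD lower, where 16.3% of all genes were called. KO1 and KO2 were compared with the same WT libraries. Between the clones PTGS2 and HPGD were called, against 6.97% of all genes. TGF-β lowered 1 of the 6, PTGS1, against 7.84% of all genes, and the KO clones together differed from TGF-β-treated cells in 5 (PTGS1, PTGS2, PTGES and PTGER2 higher, HPGD lower), against 20.2%. That comparison kept PTGS1 at 12.8 times (3.72 ± 0.24, adjusted p = 9.97e-09) and HPGD 14.9-fold lower (-4.32 ± 0.54, adjusted p = 1.51e-05). PTGES there was not called without TGF-β replicate 1 (adjusted p = 0.175), nor PTGS2 without TGF-β replicate 2 (adjusted p = 0.061).

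The rescue clones had less mRNA of the synthesis genes and of EP2 than the KO clones. In Rescue1 and Rescue2, PTGS1, PTGS2, PTGES and PTGER2 were lower and HPGD higher than in the KO clones, 5 of 6 against 23.3% of all genes. The rescue clones grew in 10% serum and the KO clones in 2%. They were also single colonies selected after transduction, and the labels do not give the KO clone they came from. Rescue, clone, selection and serum therefore cannot be told apart here. Against KO2 alone 3 of the prostaglandin genes were called, and PTGS2 (-1.76) and HPGD (-0.04) were not. In the same serum as eGFP cells, the rescue clones had 3.01-fold less PTGS1 (-1.60 ± 0.24, adjusted p = 0.000125) and no detected PTGES, 2 called of 6 against 13.1% of all genes. In the libraries labelled KO2 rescue, which shared 2% serum with KO2, PTGS2 and PTGES were called lower, against 4.17% of all genes. Rescue1 and Rescue2 did not differ by test in any of the 6 genes with limma (0.994% of all genes called). Of the 6, 2 (PTGS2 and HPGD) had an unadjusted p under 0.05, as did 1531 of all 14585 tested genes. HPGD in Rescue1 was 4.56-fold below Rescue2 (-2.30 ± 0.63, adjusted p = 0.107).

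Cells carrying a control vector in 10% serum already differed from WT cells in 2% serum. eGFP cells had 3.81 times the PTGS1 of WT cells (1.92 ± 0.27, adjusted p = 0.000103) and far less HPGD, 2 called of 6 against 12.7% of all genes. PTGS2 was 0 in both eGFP libraries, and PTGES was not called (1.78 ± 1.37, adjusted p = 0.39). SOX2, OCT2 and PRRX1 cells showed no called difference from eGFP cells in these genes with limma (0.0206%, 0.0343% and 0.0411% of all genes called). At an unadjusted p under 0.05 there were 2 with SOX2, 1 with OCT2 and 0 with PRRX1. Of all 14585 tested genes, 986, 1026 and 673 passed that threshold. PTGS2 was 10.8 and 12.5 in SOX2 cells, 2.45 and 6.34 in OCT2 cells and 0 in both PRRX1 libraries; the SOX2 mean was at least 3.74-fold above eGFP (adjusted p = 0.446). HPGD was 57.6 and 52.2 with SOX2 against 12 and 22.4 with eGFP (1.68 ± 0.63, adjusted p = 0.614).

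Around these genes, the clearest change in the rest of the pathway was in a terminal synthase. Of 30 further genes (phospholipases, terminal synthases, transport and breakdown, other receptors) 26 were in the table and 19 were tested, of which 2 were higher and 4 lower in KO1 (25% of all genes were called), 2 higher and 1 lower in KO2 (16.3%), 1 higher and 2 lower with TGF-β (7.84%), and 2 higher and 5 lower in the rescue clones against the KO clones (23.3%). The KO1 and KO2 counts are near what those shares give over 19 genes. Their median log2 change was -0.50 in KO1 and -0.26 in KO2, against 0 for all genes in KO1 and 0.0031 in KO2. AKR1B1, an aldo-keto reductase that can make prostaglandin F2α, was 1586 and 1992 in WT, 12011 and 11178 in KO1 and 7625 and 6826 in KO2. The log2 change from WT was 2.70 ± 0.11 in KO1 (adjusted p = 9.6e-11), and in KO2 it was 2.02 ± 0.11 (adjusted p = 5.14e-09). AKR1B1 fell by 2.23 in the rescue clones against the KO clones (adjusted p = 1.48e-11) and by 1.49 in the libraries labelled KO2 rescue against KO2 (adjusted p = 5.56e-07). PTGES2, a second prostaglandin E synthase, rose by 1.10 in KO1 (adjusted p = 0.0185), with a rise of 1.01 in KO2 (adjusted p = 0.0379), and was lower in the rescue clones than in the KO clones (-1.78, adjusted p = 2.45e-05). Its KO1 call was lost in 4 of 13 alternatives, among them an equal total for the libraries, leaving out KO1 replicate 1, and leaving out WT replicate 1 (0.57, adjusted p = 0.241). Its KO2 call was lost in 7 of 13, among them without either KO2 library, with a pseudocount of 5, with quantile normalization and without WT replicate 1 (0.48, adjusted p = 0.375). AKR1C3, a prostaglandin F synthase whose near-identical relatives make its counts uncertain, was 24.8 and 50.7 in KO1 and 6.51 and 18.7 in WT (adjusted p = 0.119) and was lower in the rescue clones than in the KO clones (-3.18, adjusted p = 0.000218).

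The prostaglandin transporter and the receptors outside EP2 and EP4 followed other patterns. SLCO2A1, which carries prostaglandins into cells, was 1058 and 138 in WT, so that its WT libraries disagreed, and 3858 and 3382 after TGF-β. KO1 had 39.8 and 78.9, and KO2 had 176 and 215. It rose with TGF-β (log2 change 3.24, adjusted p = 0.00249) and fell in KO1 (-2.75, adjusted p = 0.00316), and neither was called when only the libraries compared entered the fit (adjusted p = 0.239 and 0.212); the changes were 1.77 and -4.21 without WT replicate 2, and 4.70 and -1.28 without WT replicate 1. PTGR3, a prostaglandin reductase, fell in KO1 (-2.03, adjusted p = 0.000658), and CBR1, a carbonyl reductase that acts on prostaglandins, was lower in eGFP cells than in WT (-1.69, adjusted p = 0.000482). ANXA1, an inhibitor of phospholipase A2, fell with TGF-β (-1.83, adjusted p = 0.000372) and in eGFP cells (-1.25, adjusted p = 0.00434). PLA2G6, a calcium-independent phospholipase, was lower in KO1 (-1.07, adjusted p = 0.0214), a change that was -0.36 without KO1 replicate 2 and not called without that library or WT replicate 2. Of 7 further prostanoid receptors 5 were in the table and 2 were tested, PTGFR and TBXA2R, neither called by limma in any comparison. At an unadjusted p under 0.05, 1 of the 2 passed in KO1 against WT and in the KO clones against TGF-β. The count was also 1 in Rescue1 against Rescue2, and 0 elsewhere. Of all 14585 tested genes, 6897, 6454 and 1531 passed that threshold in these comparisons, in the order given. PTGFR, the receptor of prostaglandin F2α, picked out here after its values were seen, ranged from 33.7 to 36.3 in WT, from 0 to 54.2 in KO1 and from 104 to 118 in eGFP cells. Of the 7 genes of the lipoxygenase branch, the other route from arachidonic acid, 2 were tested and ALOX5AP, the 5-lipoxygenase activating protein, fell in KO1 (-3.54, adjusted p = 2.52e-05), likewise KO2 (-1.47, adjusted p = 0.029), and was higher in the rescue clones than in the KO clones (2.98, adjusted p = 3.46e-06). The KO2 call was lost without KO2 replicate 1, WT replicate 1 or WT replicate 2, and with only the libraries compared (adjusted p up to 0.196), and the last of these also ended the KO1 call (adjusted p = 0.0907).

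**Figure D4:**
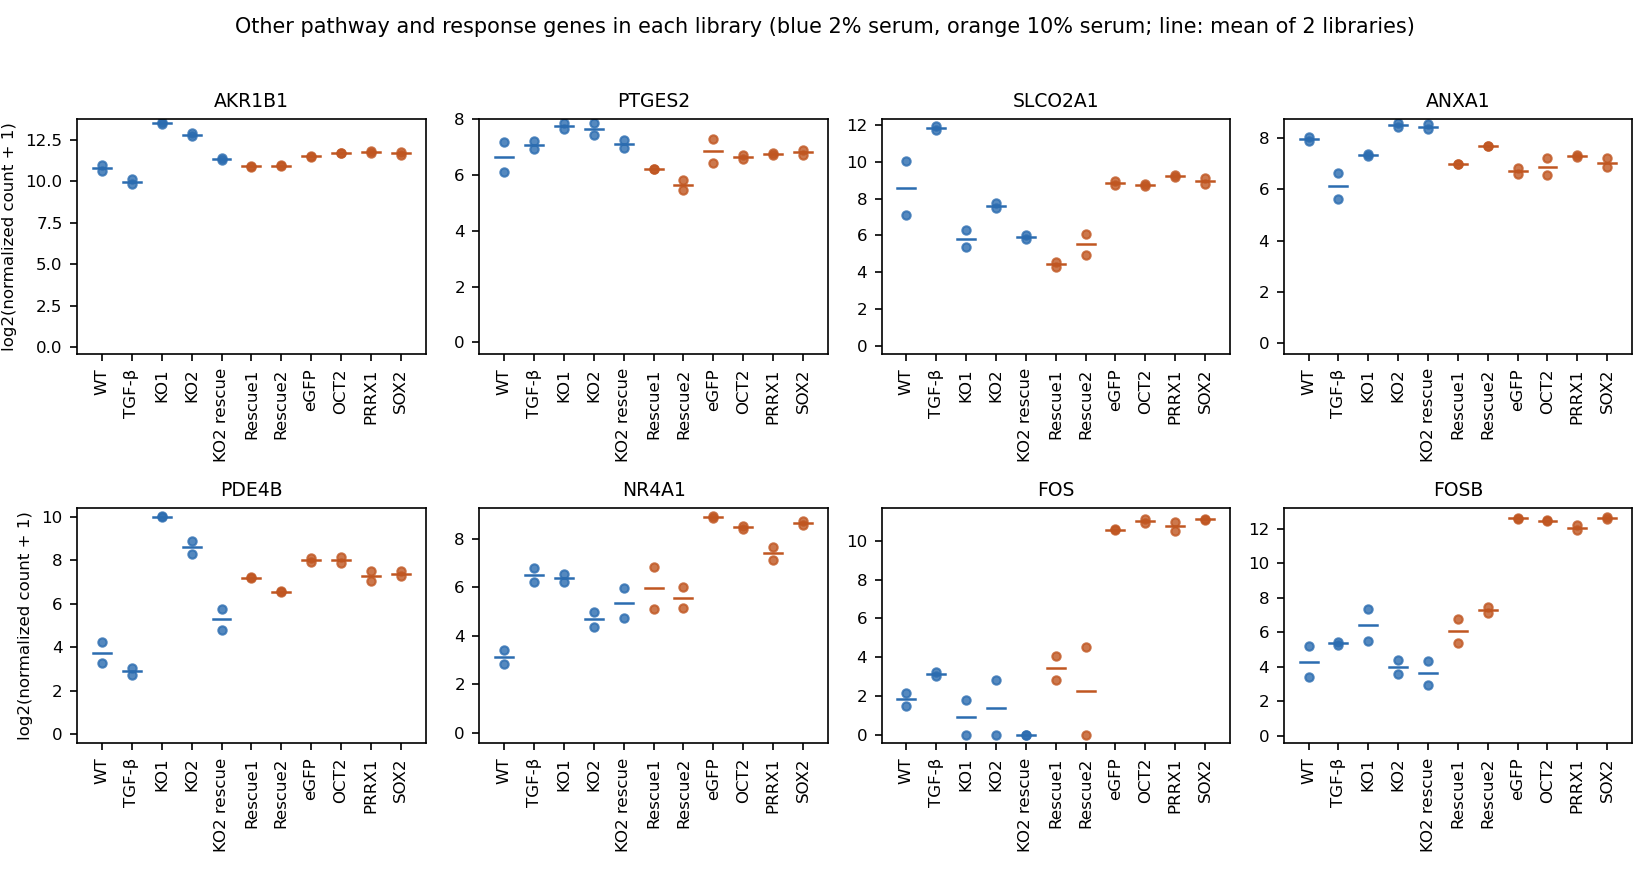
Log2(normalized count + 1) of 8 other genes (y axis, a scale per panel) by group (x axis); points are libraries, lines are means of 2, blue is 2% serum and orange 10% serum. AKR1B1 and PDE4B are highest in KO1 and KO2, SLCO2A1 is highest with TGF-β, and FOS and FOSB are high in the 8 transduced WT libraries and not in the 4 rescue libraries grown in the same 10% serum.

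Of 9 genes that respond to cAMP, the messenger of EP2 and EP4, 8 were tested. In KO1 5 were higher and 0 lower (median log2 change 2.30, all genes 0), against 25% of all genes called. In KO2 3 were higher (median 1.40), against 16.3%, among them NR4A1 (1.55, adjusted p = 0.0403), whose call was kept in 2 of 13 alternatives. With TGF-β 3 were higher (median 1.09), against 7.84%. In eGFP cells, too, 4 were higher than in WT (median 1.09), against 12.7%. PDE4B, a cAMP phosphodiesterase, was 8.53 and 17.6 in WT, 1024 and 1036 in KO1, and 469 and 313 in KO2. It was 274 and 244 in eGFP cells and 26.7 and 53.1 in the libraries labelled KO2 rescue. Its log2 change from WT was 6.27 for KO1 (adjusted p = 2.53e-09) and 4.85 for KO2 (adjusted p = 7.79e-08), with 4.28 for eGFP cells (adjusted p = 5.9e-07), and it was lower in the rescue clones than in the KO clones (-2.42, adjusted p = 1.44e-06). PDE4D, another cAMP phosphodiesterase of the list, was picked out after its values were seen. It averaged 710 ± 320 in WT, 544 ± 10.6 in KO1, 682 ± 0.618 in KO2 and 2313 ± 117 with TGF-β. PDE4D was called higher with TGF-β and was not called against WT in either KO clone. NR4A1, a nuclear receptor, rose with TGF-β (3.37, adjusted p = 0.00041) and in KO1 (3.25, adjusted p = 0.000172), and was 467 and 492 in eGFP cells (5.77 against WT, adjusted p = 1.66e-06). NR4A3 was 42.2 and 108 in KO1 and 0 in both WT libraries (adjusted p = 0.028, not called with any 1 of the 4 libraries left out). Of 10 immediate-early genes 7 were tested, with 1 higher in KO1 (25% of all genes called) and 1 lower in KO2 (16.3%). With TGF-β 2 were higher (7.84%), and 3 were higher in the rescue clones than in the KO clones (23.3%). In eGFP cells 5 were higher than in WT, against 12.7% of all genes, among them FOS (3.47 and 1.83 in WT, 1481 and 1538 with eGFP), FOSB (36.1 and 9.52 in WT, 6107 and 6462) and ATF3 (150 and 30.2 in WT, 3182 and 2704). The rescue clones, also in 10% serum, had FOS at 0 to 22.3, and the part of these genes in the PTGS1 and HPGD levels of the transduced lines was not tested. FOSB was higher in KO1 than in WT by 2.14 on the log2 scale (adjusted p = 0.0159), at 44.7 and 164, and was not called without KO1 replicate 2 or WT replicate 2.

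Within the set, PTGES and PTGER2 had the most similar group means. Over the 11 group means of log2(normalized count + 1), which share libraries and scaling, Pearson's r was 0.88 for PTGES with PTGER2 and 0.71 for PTGS2 with PTGER2, 0.15 for PTGS1 with PTGS2, and -0.56 for PTGS1 with HPGD. Among all tested genes, those most like PTGS1 were SLC2A3 (r = 0.98), ALDH6A1 (0.98) and PTPRG (0.98). For PTGS2 they included KHDRBS3 (0.90) and DLG4 (0.90), and for PTGES they were CDC42SE2 (0.96), GSPT2 (0.95) and PILRA (0.94). HPGD was most like FABP3 (0.95), ZNF449 (0.94) and RAET1L (0.93), PTGER2 most like FAT1 (0.96), TMEM205 (0.94) and KRT4 (0.93), and PTGER4 most like NFE2L3 (0.87), ZNF23 (0.87) and SNRNP48 (0.87). KO1 held the highest group mean of PTGS2, PTGES and PTGER2 alike.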

How the data were processed

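Poly(A) RNA of 22 libraries was sequenced in read pairs from a stranded kit. Per the labels and methods, transcripts were quantified with Salmon 1.9.0 against Ensembl release 94 cDNA (GRCh38), and DESeq2 1.26.0 was used. The table deposited by the authors holds log2 values, which were taken for variance-stabilized normalized counts because all libraries share a lowest value of 11.32; the transformation is not given in the sources used here. They were converted back to normalized counts, an inversion inferred from the values; whole reads could not be recovered for all genes, so no count model was run. The members and gene lists were chosen with earlier results of these data known. Gene symbols came from GENCODE release 44.

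Tests covered the 14585 of 36859 genes that reached 10 normalized counts in 2 or more libraries, on log2(normalized count + 1), with limma 3.58.1 (R 4.3.3) in 1 fit of 11 group means, two-sided. A gene was called at a Benjamini-Hochberg adjusted p under 0.05 over all tested genes and an absolute log2 change over 1. The script was tested on simulated data. A fold against a group at 0 is a bound against 3 reads per library, averaged over the group; where a group averaged no more than 3 reads per library, the ratio has an exact 95% counting interval that covers counting error only. Depth of 7500000 to 18600000 reads was estimated from the value of 1 read. The rule named all 7 members in each comparison, 6 of which were tested, and their changes are given mostly where a compared group averaged at least 10 normalized counts; of each other list the genes called against WT, eGFP or KO cells were named, at most 3 in order of their change, with the 3 genes most like each tested member over group means, of which 1 is not reported here. Alternatives changed the pseudocount (0.5, 5), scale, filter, normalization, libraries in the fit, replicate block, clones compared and 1 library left out. JUNB, EGR1, DUSP1, PTGER1, PTGDR2, PLA2G10, PRXL2B and SCNN1G were not analysed here.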

Additional observations from a re-analysis of the deposited data

Results flagged for a closer look

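KO1 and KO2, which carry the same kind of SETD2 lesion in 2 separate clones, differed by test in some of the genes named above, where 6.97% of all genes were called; apart from the prostaglandin genes, those given here were named because they were called in some comparison, so no share can be read from them. On the log2 scale, as KO1 minus KO2 by limma with Benjamini-Hochberg adjustment, PTGS2 differed by 3.45 (adjusted p = 0.0381) and HPGD by -2.86 (0.00608), higher and lower in KO1 in both of its libraries than in either KO2 library. Among the wider pathway, FOSB differed by 2.46 (0.0174), NR4A1 by 1.70 (0.0426) and PDE4B by 1.42 (0.0129), each higher in KO1. ALOX5AP differed by -2.07 (0.00807), PLA2G6 by -1.37 (0.0126), PTGR3 by -1.24 (0.0423) and ANXA1 by -1.18 (0.0114), each lower in KO1. The PTGS2 difference was lost without KO1 replicate 2 or KO2 replicate 2, and the HPGD difference without KO2 replicate 1. FOSB, PLA2G6, ANXA1, PDE4B and PTGR3 were each lost without KO1 replicate 2 or KO2 replicate 2, PTGR3 also without KO2 replicate 1, ALOX5AP without KO2 replicate 2, and NR4A1 without any 1 of the 4 libraries. The ALOX5AP difference was -1.07 without KO1 replicate 1. The summed fibroblast markers, mostly DCN, were 223367 to 236448 in KO1 and 98936 to 102550 in KO2. Of the 6 markers 1, DCN, was called between the clones. The part of these markers in the differences above was not tested. Clone and genotype cannot be told apart, since each clone was grown from 1 cell.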

How the results depend on the processing

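Of 50 changes given for the prostaglandin genes 26 were called, 14 of them under every alternative tried and 12 lost under at least 1; the cause of each loss was not tested unless stated. Depth limits PTGER4, PLA2G4A and, in most groups, PTGS2, PTGES and PTGER2, which rest on few reads (in KO2 too, PTGS2 at 2.76 in replicate 2 and PTGER2 at 2.16 in replicate 1), and HPGD in KO1 (3.27 and 2.19). With only the libraries compared in the fit, fewer samples estimate the spread, and the genes called fell to 1912 in KO1, 715 in eGFP against WT, 1 between KO1 and KO2, 1 between Rescue1 and Rescue2, and 0 for TGF-β, SOX2, OCT2 and PRRX1. Of the prostaglandin genes, 0 were then called between KO1 and KO2 and with TGF-β, and 1 in the libraries labelled KO2 rescue. A mean of at least 50 normalized counts leaves fewer genes to test: 1942 genes were called in the KO clones against TGF-β, 2147 in the rescue clones against the KO clones, and 3 each with OCT2 and PRRX1, and of the prostaglandin genes 1 between KO1 and KO2, 2 in KO1, 0 in the libraries labelled KO2 rescue, 2 in the KO clones against TGF-β, 2 in the rescue clones against the KO clones and 1 against eGFP. With no filter 14 genes were called with OCT2, 18 with PRRX1 and 16 with SOX2, and 1 prostaglandin gene between KO1 and KO2. A pseudocount of 0.5 gave 7 genes with SOX2 and 1 prostaglandin gene between KO1 and KO2; a pseudocount of 5 gave 3 genes with OCT2, and of the prostaglandin genes 2 with TGF-β and 1 in the libraries labelled KO2 rescue. That last count was also 1 under quantile normalization and with p from the deposited log2 values (the log2 change kept), which gave 2 with TGF-β. Scaling to the same total gave 6 genes with SOX2 and 2 prostaglandin genes with TGF-β. Against KO2 alone 3 prostaglandin genes were called in the rescue clones and HPGD turned to -0.041.

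Scaling to the same total moved the median log2 change of all genes by -0.39 in KO1, -0.20 in KO2 and under TGF-β alike, -0.21 between KO1 and KO2 and 0.37 in the rescue clones against the KO clones. Higher and lower calls were then 1161 and 3006 in KO1 (1744 and 1909 as reported), 1076 and 1519 in KO2 (1315 and 1063), 358 and 935 with TGF-β (522 and 621), 260 and 889 between KO1 and KO2 (361 and 655), and 2794 and 1171 in the rescue clones against the KO clones (1652 and 1740).

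With 1 library left out, genes called ranged from 642 to 1745 between KO1 and KO2 (642 without KO2 replicate 2, 1745 without KO1 replicate 1), 739 to 1308 with TGF-β (739 without WT replicate 2), 7 to 36 with SOX2, 3 to 37 with OCT2 and 7 to 41 with PRRX1, the highest each time without eGFP replicate 2. A group left with 1 library was assumed to vary like the others. Prostaglandin genes called ranged from 1 to 2 between KO1 and KO2, 3 to 4 in KO1, 0 to 1 in the libraries labelled KO2 rescue and 1 to 2 in the rescue clones against eGFP. PTGER2 in KO2 ranged from -0.70 (without WT replicate 2; -0.17 without KO2 replicate 2) to 2.95, PTGES in PRRX1 against eGFP from -1.02 to 0.42 (without PRRX1 replicate 2; 0.26 without eGFP replicate 1), and PTGES in SOX2 against eGFP from -3.91 to 1.64 (without SOX2 replicate 2); none of these was called.

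Replicate numbers did not pair the libraries: over 55 pairs of groups the correlation of same-numbered deviations ran from -0.08 to 0.05. With the replicate block 3643 genes were called in KO1, 2356 in KO2 and 1116 under TGF-β, and all 50 changes of the prostaglandin genes kept their direction and their call; of the other genes that differed between KO1 and KO2, NR4A1 lost its call under the block.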
